A study of Mus musculus with 2 samples.

Results

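Agt-rich astrocytes were cells of the adult mouse striatum that passed an astrocyte gate and carried at least 3 unique molecular identifiers (UMIs, tags that count each captured mRNA molecule once) of Agt, the gene of angiotensinogen. The gate kept barcodes with at least 300 detected genes, with a UMI of at least 4 of the 8 astrocyte genes Aldoc, Gja1, Slc1a2, Slc1a3, Aqp4, Cldn10, Ntsr2 and Slc4a4, and with at most 1 UMI in sum of Cx3cr1, Cldn5, Pdgfra and Mog, which mark microglia, endothelium, oligodendrocyte precursors and oligodendrocytes. The rule found 135 Agt-rich cells among 2354 gated astrocytes, out of 12262 barcodes with at least 300 detected genes and 12415 barcodes deposited. They were compared with the 1907 gated astrocytes that had no Agt UMI, and the 312 cells with 1 or 2 Agt UMIs were kept apart. The members were thus chosen by their measured UMIs of these genes, so that Agt and the other 12 genes of the rule are described without a test.

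The cells came from single-cell RNA-seq libraries 1 and 2, replicates of 1 condition. Each was made on the 10x Genomics platform from a glia-enriched suspension of dissociated whole striatum of untreated adult mice. The labels name 2 versions of the 3′ kit and not which library used which, so that kit and library cannot be told apart. The labels give the strain as C57/Bl6J in 1 place and C57BL/6NTac in another, and an age of 8 to 10 weeks, whereas the study's methods give 7 to 8 weeks and male mice. The study's methods name 4 adult mice for the whole striatum. They do not say how these were spread over the libraries, nor that the libraries came from separate animals, so that p-values measure the spread between these libraries, which may be technical. Both groups of astrocytes were present in each suspension, and no treatment separated them.

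Angiotensinogen is the secreted precursor of the angiotensin peptides. Renin cuts it to angiotensin I, angiotensin-converting enzyme (Ace) trims that to angiotensin II, which acts on the receptors Agtr1a, Agtr1b and Agtr2, and peptidases such as Enpep, Anpep and Mme process the peptides further. In the brain, astrocytes are known as the main source of angiotensinogen, and the liver gene is known to respond to glucocorticoids and to acute-phase signals through STAT3. Astrocytes of the striatum clear glutamate and GABA, buffer potassium and are coupled by gap junctions.

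Agt (ENSMUSG00000031980) lies on the minus strand at chr8:124556534-124569706 of GRCm38, the build of the counts. Its promoter is printed because this gene defines the cells. The 250 bases before the RefSeq start site, at chr8:124569707-124569956 of GRCm38.p6 and read 5′ to 3′ on the minus strand, were as follows, with capitals at the match to TTCNNNGAA, a STAT-type motif, and at the match to TATAAA, the TATA box.
Agt promoter: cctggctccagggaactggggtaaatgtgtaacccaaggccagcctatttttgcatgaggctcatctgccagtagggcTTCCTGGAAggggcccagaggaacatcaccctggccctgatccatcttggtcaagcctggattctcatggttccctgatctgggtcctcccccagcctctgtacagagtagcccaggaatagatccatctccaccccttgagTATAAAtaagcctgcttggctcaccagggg
The STAT-type match began at -172 and the TATA box at -30 relative to the start site. Searched on both strands, TTCNNNGAA was found in 7.02% and TATAAA in 12.4% of 32851 RefSeq promoter windows of the same length. These matches describe the letters of the window, and no chromatin or factor binding was measured.

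Agt-rich astrocytes were unevenly spread over the libraries. Library 1 held 23 of them among 1323 gated astrocytes, a share of 1.74% (95% exact binomial interval 1.11 to 2.60%). Library 2 held 112 among 1031, a share of 10.9% (9.03 to 12.9%). The intervals did not overlap, and the mean of both shares was 6.30% ± 6.45 (SD, n = 2). After thinning of each gated cell with at least 2000 UMIs to exactly 2000, the shares were 1.08% (0.469 to 2.12%) and 9.38% (7.28 to 11.8%). Cells with fewer UMIs were left out of these shares, and the part of depth in the gap between libraries was not tested. The kit version may differ between the libraries too, and its part in this gap was not tested. Intervals on shares and levels cover counting error only.

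Library 1 held 44597660 UMIs in 6978 barcodes, with a median of 3852 per barcode, and library 2 held 37982720 in 5437, with a median of 5375. The Agt-rich cells were deeper than the cells they are compared with, as a rule that asks for 3 UMIs of 1 gene favours deep cells. Their median depth was 6395 UMIs in library 1 (range 1434 to 27023) and 5076 in library 2 (750 to 10780), against 2100 and 3014 in astrocytes without Agt. The second comparison therefore paired each Agt-rich cell with 1 Agt-zero cell of like depth from its own library. All 23 and all 112 members found a partner, and the matched cells had medians of 6375 and 5089 UMIs. The number of detected genes was not matched, with medians of 2563 and 2356 in Agt-rich and 2312 and 2136 in matched cells. The median share of mitochondrial UMIs was 5.38% and 8.22% in Agt-rich cells, 7.55% and 8.51% in all Agt-zero cells, and 4.85% and 7.83% in the matched cells of libraries 1 and 2. Of the 9 barcodes that both libraries share, 1 belonged to an Agt-rich cell, and Scrublet marked none of the 135 members as a doublet, against 1 and 7 Agt-zero cells.

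**Figure D1:**
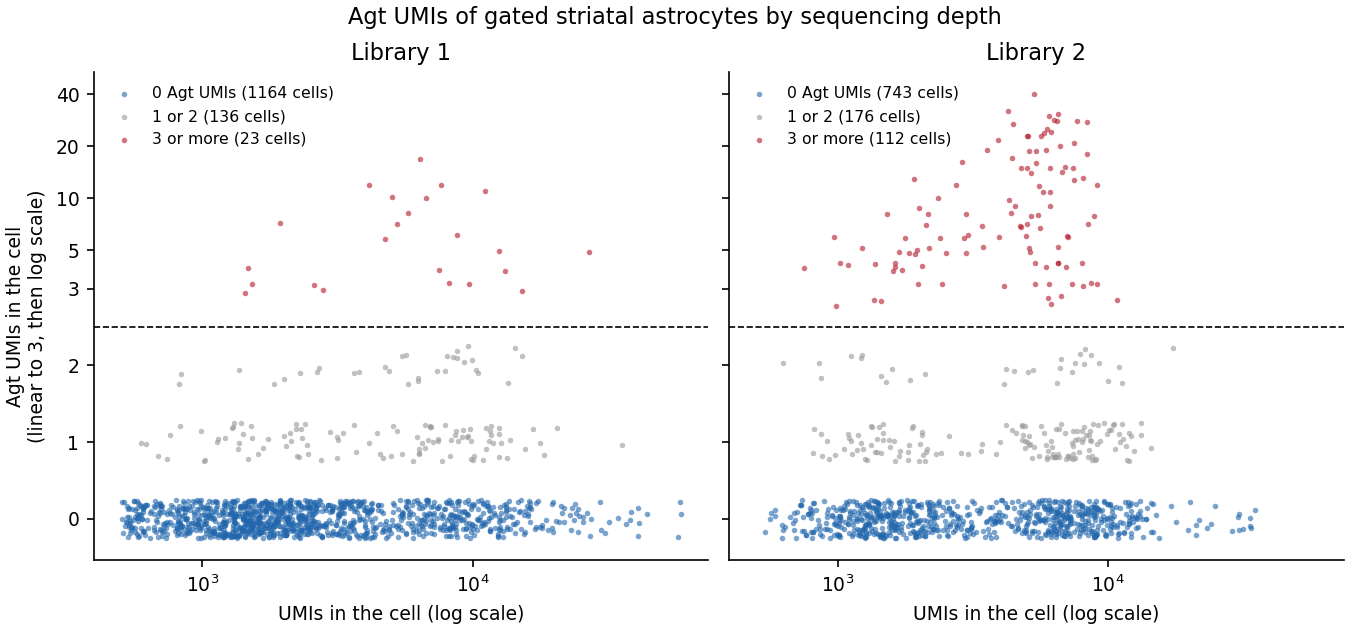
Agt UMIs of every gated astrocyte (vertical axis, linear up to 3 and logarithmic above, points jittered) against the cell's UMI total (horizontal axis, log scale) in libraries 1 and 2. Points above the dashed line are the 23 and 112 Agt-rich cells, which reached 17 Agt UMIs in library 1 and 40 in library 2, and cells without Agt are found at every depth.

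Within the Agt-rich astrocytes Agt varied widely. Members of library 1 carried 3 to 17 Agt UMIs with a median of 5, and members of library 2 carried 3 to 40 with a median of 7. Summed over cells, Agt reached 873 CPM (UMIs of the gene among 1000000 UMIs of the summed cells; 95% exact Poisson interval 739 to 1025) in library 1 and 2251 CPM (2125 to 2382) in library 2. The members of library 2 thus held more Agt both in number of cells and per cell.

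The gate fixed the presence of astrocyte markers, so that their levels are a description of the members. All 8 were found in 19 of 23 members in library 1 and 91 of 112 in library 2. Gja1, the gap junction protein connexin 43, stood at 2139 and 2273 CPM in Agt-rich cells of libraries 1 and 2, at 1243 and 1760 CPM in the depth-matched cells and at 893 and 1493 CPM in all Agt-zero cells. Aqp4, the water channel of astrocyte endfeet, stood at 1055 and 897 CPM against 645 and 651 CPM in matched cells. Ntsr2, a neurotensin receptor gene known from astrocytes, had 1770 and 1921 CPM against 862 and 1332, and Slc4a4, a sodium bicarbonate cotransporter, 1776 and 2413 against 1078 and 1260. These 4 genes were higher in the Agt-rich sums of both libraries. Aldoc, a glycolytic enzyme, was at 4941 CPM against 3423 in matched cells of library 1 and at 3033 against 4022 in library 2. Slc1a2, the glutamate transporter GLT-1, was at 5111 against 4724 and at 4169 against 6908. Cldn10, a claudin, was at 1506 against 873 and at 1229 against 1285, and the glutamate transporter Slc1a3 at 2796 against 2321 and at 3480 against 3350. Against matched cells the direction differed between the libraries for Aldoc, Slc1a2 and Cldn10. Slc1a3 was higher in library 1 and nearly level in library 2. Against all Agt-zero cells Cldn10 was higher in both libraries, with log2 fold changes of 0.97 and 0.18.

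Agt was then measured outside the gate. Cells were sorted into classes by at least 4 of 8 markers of a class with a lead of 2 markers over any other, a rule set after the counts had been seen. In microglia Agt stood at 1.39 CPM (0.668 to 2.56) in library 1 and 2.82 CPM (1.61 to 4.59) in library 2, with a UMI in 0.807% and 1.52% of cells at median depths of 6984 and 5504 UMIs. Oligodendrocytes had 1.14 and 1.84 CPM, oligodendrocyte precursors 2.89 and 2.48 CPM, and endothelial cells 0.910 and 1.79 CPM. No Agt UMI was found in the 122 and 101 cells of the neuron class. Their intervals reach 5.11 and 6.33 CPM, above the levels of these other classes, so that neurons cannot be placed below them. The gated astrocytes as a whole had 50.1 and 271 CPM, with a UMI in 12.02% and 27.93% of cells. At least 3 Agt UMIs were met outside the gate in 1 oligodendrocyte of library 2 and in 5 and 6 barcodes that fitted no class. These unclassified barcodes, with median depths of 1338 and 2446 UMIs, had 9.41 CPM (7.18 to 12.1) and 21.4 CPM (17.3 to 26.2) of Agt, above each class named here outside the gate.

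Beyond Agt itself, most of the genes listed for the renin-angiotensin system had few or no UMIs in the Agt-rich astrocytes. Not a single UMI was found for renin (Ren1), Ace, the receptors Agtr1a, Agtr1b and Agtr2, or the peptidases Enpep, Anpep and Mme in the 170624 UMIs of library 1 and the 530521 of library 2, which allows levels of up to 17.6 and 5.66 CPM. Mas1, the receptor of angiotensin-(1-7), had 1 UMI, and Prep, a prolyl peptidase, had 2. Ace, Agtr1a, Agtr1b, Agtr2, Mas1 and Enpep had no UMI in the depth-matched cells of either library, so that this lack is not particular to the Agt-rich cells. The members that were measured are known for broader roles. Lnpep, which binds angiotensin IV, stood at 46.9 and 77.3 CPM, Atp6ap2, the (pro)renin receptor and a subunit of the proton pump, at 123 and 141 CPM, the lysosomal protease Ctsd at 445 and 362 CPM, and the peptidase Thop1 at 23.4 and 22.6 CPM. None of these 4 passed the test in either comparison described below, and their median log2 fold change was -0.17 over all cells and 0.12 after depth matching. In the same suspensions Enpep was found in the mural class, at 195 and 179 CPM, whereas Mme was found in neurons at 65.2 and 89.2 CPM.

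Genes other than those of the rule were then compared between Agt-rich and Agt-zero astrocytes, on UMIs summed per library and group. The Agt-rich cells had higher levels of the GABA transporter Slc6a11, the glycine transporter Slc6a9, the secreted proteins Itih3 and Sparc and the potassium channel Kcnj10, both against all Agt-zero cells and against cells matched on their UMI total. Lower levels were found for haemoglobin, Sox4 and Sox11, but their matched calls were lost in alternatives that left some cells out. After matching, haemoglobin was not called with cells rich in it left out. Sox4 and Sox11 were not called with cells carrying neuroblast or division markers left out. This alternative was chosen after seeing the data. Sox11 is itself 1 of its markers, so that the loss of the call decides nothing about Sox11. Over all cells, edgeR's quasi-likelihood test called 302 of 7083 genes higher, or 4.26% of them, and 355 lower, or 5.01%, at a Benjamini-Hochberg adjusted p of 0.05. After depth matching it called 40 of 7388 genes higher, or 0.541%, and 20 lower, or 0.271%. Of these 60 genes, 56 were also called over all cells, and 54 had the same direction in each library of both comparisons, 38 of them higher and 16 lower in Agt-rich cells. A gene was tested where at least 10% of the cells of a group had a UMI, and 125 of the 302 and 16 of the 40 higher genes reached this in the Agt-rich group alone, as 94 of the 355 and 13 of the 20 lower genes did in the Agt-zero group alone, so that the filter favoured the direction in which these genes were called. Such genes are called filter-favoured below, and their values are given as a description, with no p. With 2 libraries and the library as a block the test has little to estimate the spread from, and the matched calls depend on the scaling, since scaling to library sizes alone left 1 call in place of 60. They depend on the filter too, since edgeR called 0 matched genes where every gene with a UMI in each sum was tested, with 591 at an unadjusted p under 0.05. Over all cells Slc6a11, Slc6a9, Itih3 and Sparc were called under every alternative with a test, DESeq2 included, whereas Kcnj10 was lost with no block on the library (adjusted p = 0.055).

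Slc6a11 (ENSMUSG00000030307, chr6:114131241-114249952) encodes the transporter GAT-3 that takes up GABA into astrocytes. Its level was 908 CPM (771 to 1063) in Agt-rich cells of library 1 and 2366 CPM (2237 to 2500) in library 2, against 317 (238 to 413) and 445 CPM (390 to 506) in depth-matched cells and 242 and 345 CPM in all Agt-zero cells. The Agt-rich value lay above both Agt-zero values in each library. Its log2 fold change was 2.32 ± 0.32 (SE taken from the F statistic of the edgeR test, n = 2 libraries, adjusted p = 1.6e-10) over all cells. After matching it was 1.95 ± 0.35 (adjusted p = 0.0093). Thinned to 2000 UMIs, 68.4% of Agt-rich and 38.0% of Agt-zero cells had a Slc6a11 UMI in library 1, and 91.1% and 47.1% in library 2. Unthinned, the shares were 100% and 44.8% in library 1 and 94.6% and 60.4% in library 2, and microglia, which should lack the transporter, had a UMI in 4.48% and 3.90% of cells.

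Slc6a9, which encodes the glycine transporter GlyT1, stood at 82.1 and 255 CPM in Agt-rich cells and at 5.86 and 52.8 CPM in matched cells, a log2 fold change of 2.23 ± 0.37 (adjusted p = 0.0071). Gria1 (chr11:57011387-57330244), the AMPA receptor subunit GluA1, stood at 82.1 CPM (44.9 to 138) and 356 CPM (307 to 411) in Agt-rich cells, against 5.86 (0.148 to 32.7) and 32.1 CPM (18.7 to 51.4) in matched cells. It was filter-favoured, with a UMI in 55.6% of all Agt-rich and 4.93% of all Agt-zero cells, and its log2 fold change was 3.17 ± 0.39 after matching and 3.29 ± 0.30 over all cells. The matched sums of library 1 held 1 UMI of each of these genes, so that their folds there rest on very few molecules. In library 1 a single Agt-rich cell held 8 of the 14 Gria1 UMIs, and without it Gria1 stood at 36.5 CPM. At 2000 UMIs per cell, Gria1 was found in 15.8% of Agt-rich (3.38 to 39.6%) and 2.61% of Agt-zero cells of library 1 and in 44.4% and 2.41% of library 2. Unthinned, the shares were 30.4% and 4.64% in library 1 and 60.7% and 5.38% in library 2, against 2.15% and 2.28% of microglia.

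In the list of 13 genes of GABA and glycine handling, 12 were tested and 5 rose over all cells, where 4.26% of all genes did, among them Slc6a11, Slc6a9, the GABA-degrading enzyme Abat and the GABA-B receptor subunit Gabbr2. After matching 2 of 12 rose, Slc6a11 and Slc6a9, against 0.541% of all genes, and the median of the list was 0.59 over all cells and 0.44 after matching, against 0.02 and 0.01 over all genes tested. Of 11 tested genes of glutamate and glutamine handling, the serine and alanine transporter Slc7a10 rose over all cells and the filter-favoured Gria1 was higher in both comparisons, with medians of 0.41 and 0.20. None of the tested members of either list fell.

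Potassium and endfoot genes formed the next group. Kcnj10, the inward rectifier Kir4.1 that carries most of the potassium conductance of astrocytes, stood at 147 and 460 CPM in Agt-rich cells, 76.2 and 125 CPM in matched cells and 84.2 and 103 CPM in all Agt-zero cells, a log2 fold change of 1.48 ± 0.34 after matching (adjusted p = 0.0497). Kcnj16, the Kir5.1 subunit that pairs with it, stood at 58.6 and 117 CPM against 35.2 and 18.9 CPM in matched cells and changed by 1.77 ± 0.41 (adjusted p = 0.0497). Over all cells Kcnj16 was filter-favoured, with a UMI in 36.3% of Agt-rich and 6.50% of Agt-zero cells. The Agt-rich sums were the highest in each library for both channels, and both calls lay at the threshold. All 13 genes of this list were tested. Over all cells Kcnj10, the sodium pump subunit Atp1b2 and the connexin Gjb6 rose, where 4.26% of all genes were called higher. The filter-favoured Kcnj16 had higher levels there too, given as a description. After matching the 2 channels alone rose, against 0.541% of all genes, and the list medians were 0.67 and 0.50.

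Among secreted proteins, Itih3 (ENSMUSG00000006522, chr14:30908572-30923760), a heavy chain of the inter-alpha-trypsin inhibitor that binds hyaluronan, stood at 340 CPM (258 to 439) in Agt-rich cells of library 1 and 1427 CPM (1327 to 1532) in library 2. Matched cells had 93.8 (53.6 to 152) and 99.98 CPM (74.9 to 131). The log2 fold change was 2.98 ± 0.43 after matching (adjusted p = 0.0018) and 3.39 ± 0.32 over all cells (adjusted p = 3.5e-22). At 2000 UMIs an Itih3 UMI was found in 52.6% of Agt-rich against 10.1% of Agt-zero cells in library 1 and in 76.7% against 12.9% in library 2, and unthinned in 69.6% against 17.4% and 81.3% against 23.4%, while 2.24% and 1.62% of microglia had one. Sparc, a matricellular protein that opposes synapse formation by Sparcl1, stood at 791 and 1434 CPM against 287 and 242 CPM in matched cells and changed by 2.00 ± 0.35 (adjusted p = 0.0093). Sparc is also a microglial gene, found in 97.7% and 98.1% of microglia here. Of the secreted and synapse-forming proteins, 3 of 9 tested rose over all cells, Sparc, Sparcl1 and the phagocytic receptor Megf10, and 1 of 10 after matching, Sparc, against 4.26% and 0.541% of all genes, with medians of 0.34 and 0.21.

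Igsf1 (chrX:49782536-49797749), a membrane protein of the immunoglobulin superfamily known from the pituitary, stood at 58.6 CPM (28.1 to 108) and 326 CPM (279 to 379) in Agt-rich cells, against 0 and 13.2 CPM in matched cells and 2.28 and 6.25 CPM in all Agt-zero cells. A UMI of it was found in 50.4% of all Agt-rich and 1.52% of all Agt-zero cells, so that it was filter-favoured, with a log2 fold change of 5.11 ± 0.34 over all cells and 4.03 ± 0.43 after matching. An Igsf1 UMI was found in 8 of 23 and 60 of 112 Agt-rich cells, in 12 of 1164 and 17 of 743 Agt-zero cells, and in 0 of 1116 and 3 of 1051 microglia.

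Nkx6-2, a homeobox transcription factor known from oligodendrocytes and ventral patterning, rose by 3.18 ± 0.41 after matching (adjusted p = 6.3e-04), but almost all of its signal came from library 2. It stood at 481 CPM (424 to 543) in Agt-rich cells there against 31.5 CPM in all Agt-zero cells, and at 35.2 CPM (12.9 to 76.5) against 29.0 CPM in library 1. Over all cells it was filter-favoured, and the log2 fold change was 3.83 in library 2 and 0.27 in library 1, where 6 UMIs stood behind it. Of these, 3 lay in 1 cell, without which the level was 17.7 CPM, and DESeq2 did not call Nkx6-2 over all cells. Thinned to 2000 UMIs, 0 of 19 Agt-rich and 22 of 613 Agt-zero cells of library 1 had an Nkx6-2 UMI. In library 2 the thinned shares were 45.6% and 5.25%. Unthinned, they were 17.4% and 7.13% in library 1 and 50.9% and 9.56% in library 2, against 7.71% and 4.47% of microglia. Of the filter-favoured genes, Dab2, an endocytic adaptor, stood at 29.3 and 130 CPM against 0 and 15.1 CPM in matched cells, the inositol trisphosphate kinase Itpkb at 70.3 and 98.0 CPM against 0 and 15.1 CPM, and the peroxisomal enzyme Pipox at 46.9 and 143 CPM against 0 and 22.6 CPM.

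Car10, a carbonic anhydrase-related protein, the long non-coding RNA Hotairm1, the transcript B230323A14Rik and the complement gene C2 had at most 26 UMIs each in the Agt-rich cells of either library. They were filter-favoured, with a UMI in 10.4% to 14.1% of Agt-rich cells. Hotairm1 had 2 and 26 UMIs in Agt-rich cells of libraries 1 and 2 and none in matched cells, so that in library 2 it was at least 8.66-fold higher against a floor of 3 UMIs in that library's matched sum. By the same floor B230323A14Rik, with 23 UMIs, was at least 7.66-fold higher and C2, with 17 UMIs, at least 5.66-fold higher in library 2. In library 1 these 3 genes had 2 or 3 UMIs each, which give no bound.

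**Figure D2:**
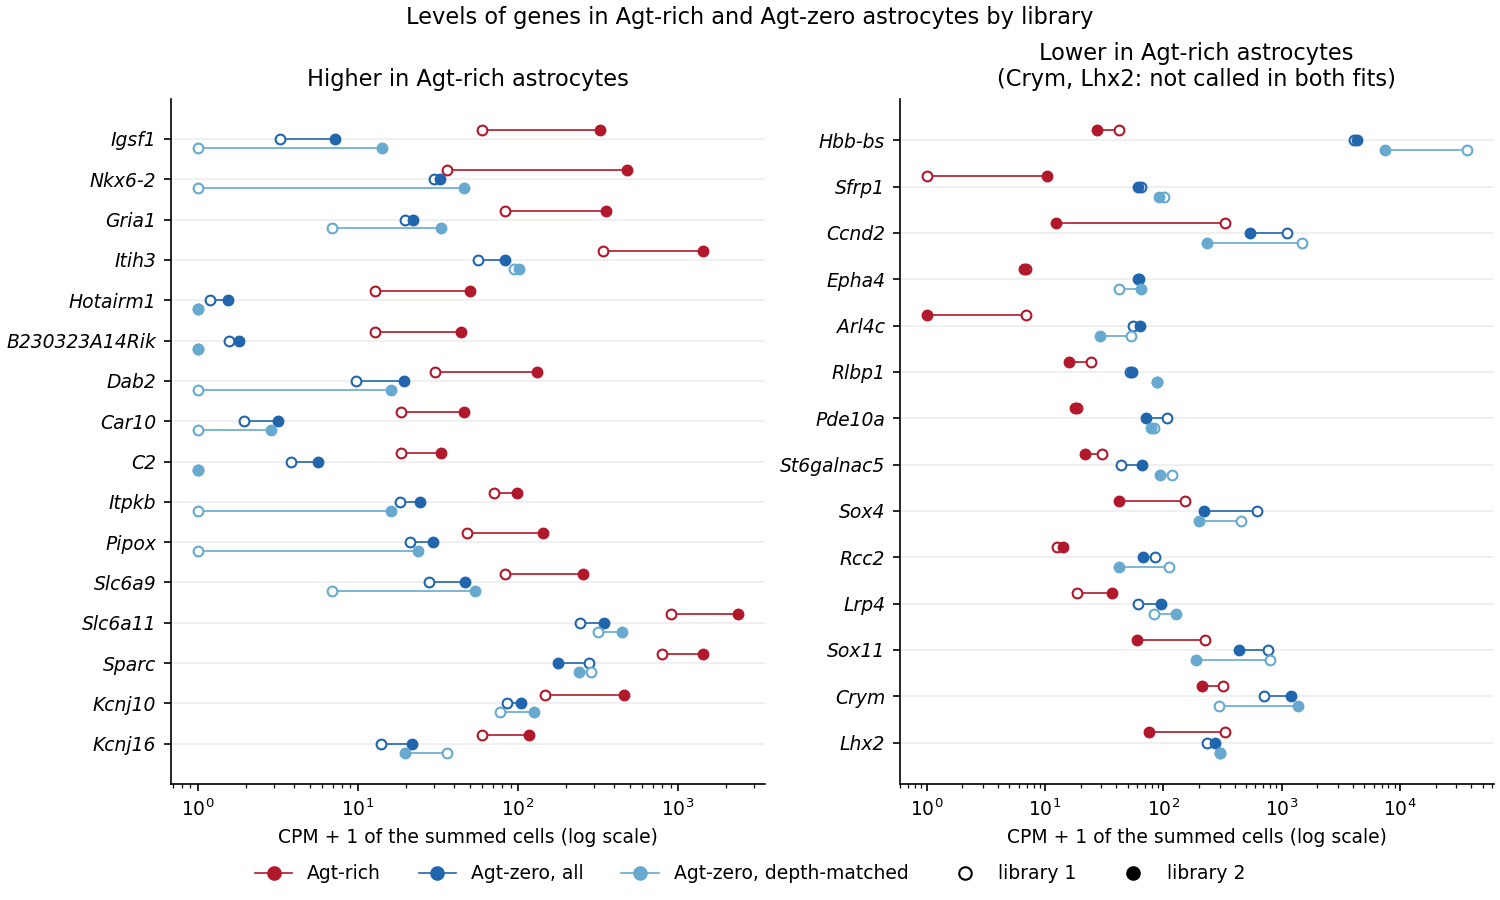
Levels (CPM + 1 of the summed cells, log scale) of named genes, filter-favoured ones included, in Agt-rich cells, all Agt-zero cells and depth-matched Agt-zero cells, with libraries 1 (open) and 2 (filled) joined by a line. In the left panel Agt-rich cells lay above the Agt-zero cells of the same library, with Nkx6-2 of library 1 close to all Agt-zero cells (35.2 against 29.0 CPM). In the right panel the line of Crym in Agt-rich cells (213 to 317 CPM) overlaps that of matched cells (293 to 1388 CPM) and lies below that of all Agt-zero cells (714 to 1207 CPM). Neither Crym nor Lhx2 was called in both comparisons.

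Among genes with lower levels in Agt-rich astrocytes, haemoglobin had the largest fold. Hbb-bs, a beta globin, stood at 41.0 and 26.4 CPM in Agt-rich cells and at 36700 and 7549 CPM in matched cells, a log2 fold change of -8.70 ± 0.70 (adjusted p = 1.5e-06). Reads of this gene can be split with its near-identical copy Hbb-bt. The signal sat in few Agt-zero cells, since the 5 cells richest in haemoglobin held 86.6% and 99.7% of the haemoglobin UMIs of all Agt-zero cells, and a single cell held 5040 of the 5046 in the matched cells of library 2. With cells of at least 1% haemoglobin UMIs left out, which were 9 and 5 Agt-zero and no Agt-rich cells, the log2 fold change was -0.048 after matching (adjusted p = 0.99) and -0.30 over all cells (adjusted p = 0.76).

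Sox4 and Sox11, transcription factors of neuronal differentiation, fell by 1.88 ± 0.33 and 1.76 ± 0.31 on the log2 scale after matching (adjusted p = 0.0092 and 0.0093). Sfrp1, a secreted Wnt antagonist, and Ccnd2, the cyclin D2 of dividing cells, were filter-favoured through the Agt-zero group. Sfrp1 stood at 0 and 9.43 CPM in Agt-rich cells against 99.6 and 90.6 CPM in matched cells, and Ccnd2 at 334 and 11.3 CPM against 1483 and 232 CPM.

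What remained of these genes in the Agt-rich cells of library 1 came mostly from the deepest member, a cell of 27023 UMIs with 5 Agt UMIs. It held 53 of the 57 Ccnd2 UMIs, 34 of 38 for Sox11 and 23 of 26 for Sox4, and without it Ccnd2 stood at 27.9 CPM. Cells with at least 2 of 8 neuroblast markers or a UMI of the division genes Mki67 or Top2a numbered 4 and 6 among Agt-rich cells and 230 and 91 among Agt-zero cells. With these left out of both groups, an alternative chosen after seeing the data in which Sox11 is itself 1 of the markers, Sox4 changed by -0.14 and Sox11 by -0.62 after matching, and neither was called.

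The receptor Lrp4 fell in both comparisons, at 17.6 and 35.8 CPM in Agt-rich cells against 82.1 and 128 CPM in matched cells. The ephrin receptor Epha4, the small GTPase Arl4c, the retinoid-binding protein Rlbp1, the striatal phosphodiesterase Pde10a, the sialyltransferase St6galnac5 and the chromatin-associated Rcc2 were filter-favoured through the Agt-zero group, among them Pde10a at 17.6 and 17.0 CPM against 82.1 and 77.3 CPM in matched cells.

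Crym, the thyroid hormone-binding protein mu-crystallin on which the study centred, had lower levels in Agt-rich astrocytes over all cells. It stood at 317 CPM (238 to 413) in Agt-rich and 714 CPM (691 to 737) in all Agt-zero cells of library 1, and at 213 CPM (176 to 256) and 1207 CPM (1172 to 1243) in library 2. The log2 fold change was -1.91 ± 0.32 (adjusted p = 4.0e-07). A single cell held 28 of the 54 Crym UMIs of the members in library 1, where the level without it was 167 CPM. Another held 32 of the 113 in library 2, where the level without it was 154 CPM. In matched cells Crym stood at 293 CPM (218 to 386) in library 1 and 1388 CPM (1290 to 1492) in library 2, so that the direction was lost in library 1, with a log2 fold change of 0.062, and kept in library 2, with -2.72. The matched comparison gave -1.52 ± 0.48 (adjusted p = 0.21). Over the alternatives with a test the matched value ran from -2.35 to -0.38, with adjusted p from 7.1e-11 to 0.9997. It passed with at least 500 detected genes, at least 5 Agt UMIs or at least 6 astrocyte markers asked for, with no UMI of the excluded markers allowed, and with cells rich in haemoglobin (adjusted p = 0.018) or carrying neuroblast or division markers (adjusted p = 3.1e-05) left out, and it did not pass under the others. A lower level of Agt in Crym-positive astrocytes was known from these libraries, so these values are not independent of it.

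Crym differed sharply along the range of Agt in library 2. Cells with 0, 1 and 2 Agt UMIs had 1207, 1570 and 1134 CPM of Crym, members with exactly 3 Agt UMIs had 1109 CPM (898 to 1354), those with 4 to 9 had 69.9 CPM (38.2 to 117) and those with 10 or more had 12.3 CPM (2.54 to 36.0). A Crym UMI was found in 10 of 16, 6 of 53 and 2 of 43 members of these last classes, while 7.80% of microglia, which serve as a background, had one. A single member with 3 Agt UMIs held 32 of the 96 Crym UMIs of its class, which the Poisson interval does not cover. Just above the threshold of the rule, the 16 members with 3 Agt UMIs were thus nearer in Crym to the 30 cells with 2 UMIs just below it than to the members above them.

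In library 1 the members were too few for such a profile, with 7, 10 and 6 cells in these classes. Crym stood at 724 CPM (488 to 1033), 216 CPM (130 to 337) and 122 CPM (39.6 to 284), with a Crym UMI in 3, 5 and 1 of the cells, against 14.2% of microglia. The order was the same as in library 2 and the last intervals overlapped. A single member with 3 Agt UMIs held 28 of the 30 Crym UMIs of its class, so that the first value rests on 1 cell.

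Lhx2, a transcription factor of forebrain patterning, followed the same course in library 2, at 323 CPM in members with 3 Agt UMIs, 49.96 CPM (24.0 to 91.9) with 4 to 9 and 8.20 CPM (0.994 to 29.6) with 10 or more, against 274 CPM without Agt. In library 1 it stood at 362, 420 and 97.5 CPM against 232 CPM without Agt. Over all members the libraries went apart, with log2 fold changes of 0.50 in library 1 and -1.91 in library 2 over all cells, and the test did not call it (-0.69 ± 0.30, adjusted p = 0.15). Of the 8 telencephalic astrocyte genes, all tested, Crym was lower over all cells, where 5.01% of all genes were called lower. The LIM-domain factor Lmo1 had lower levels there too, but was filter-favoured through the Agt-zero group and is given as a description. None of the 8 was called after matching, and the medians were -0.65 over all cells and -0.68 after matching. The list held Crym, on which these libraries had been studied before. The 12 patterning factors of more caudal brain regions, such as Irx2, En1 and Hoxb3, were too sparse to be tested. They summed to 17.6 and 39.6 CPM in Agt-rich, 71.9 and 54.7 CPM in all Agt-zero and 123 and 49.1 CPM in matched cells. Zic1 led these sums, apart from Irx2 in Agt-rich (11.3 CPM) and Otx1 in matched cells (20.8 CPM) of library 2. In library 2 Irx1, Irx2 and En1 had UMIs in Agt-rich cells and none in all Agt-zero or matched cells. In library 1 they had none in Agt-rich cells, whereas Irx1 and En1 had UMIs in all Agt-zero cells.

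Itih3, Gria1, Sparc and Slc6a11 were highest in the members with the most Agt. In library 2 Itih3 stood at 82.4, 161 and 305 CPM in cells with 0, 1 and 2 Agt UMIs, at 162 CPM (88.4 to 271) in members with 3, at 1174 CPM (1029 to 1334) with 4 to 9 and at 2084 CPM (1907 to 2273) with 10 or more. Gria1 went from 69.3 CPM at 3 UMIs to 335 and 476 CPM, and Sparc from 300.3 to 994 and 2199 CPM. Slc6a11 went from 519.8 CPM at 3 UMIs to 2158 and 3191 CPM, but cells with 2 Agt UMIs had 939.1 CPM of it, above the members with 3. In library 1 the steep part came later, with Itih3 at 145, 182 and 877 CPM (615 to 1215) and Sparc at 434, 431 and 1925 CPM (1524 to 2400) in the 7, 10 and 6 members with 3, 4 to 9 and 10 or more Agt UMIs. Slc6a11 stood at 506.6, 624 and 1925 CPM in these members, against 507.6 CPM in cells with 2 Agt UMIs. Gria1 stood at 24.12, 11.35 and 292.5 CPM, on 1, 1 and 12 UMIs. Nkx6-2 went from 116 CPM at 3 UMIs to 440 and 644 CPM in library 2, but stood at 72.4, 22.7 and 24.4 CPM in the same classes of library 1. The median UMI total of the 3 classes was 6040, 3034 and 5744 in library 2 and 2792, 6648 and 6556 in library 1, so that in library 1 depth was higher in the classes with more Agt, and its part in these values was not tested.

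**Figure D3:**
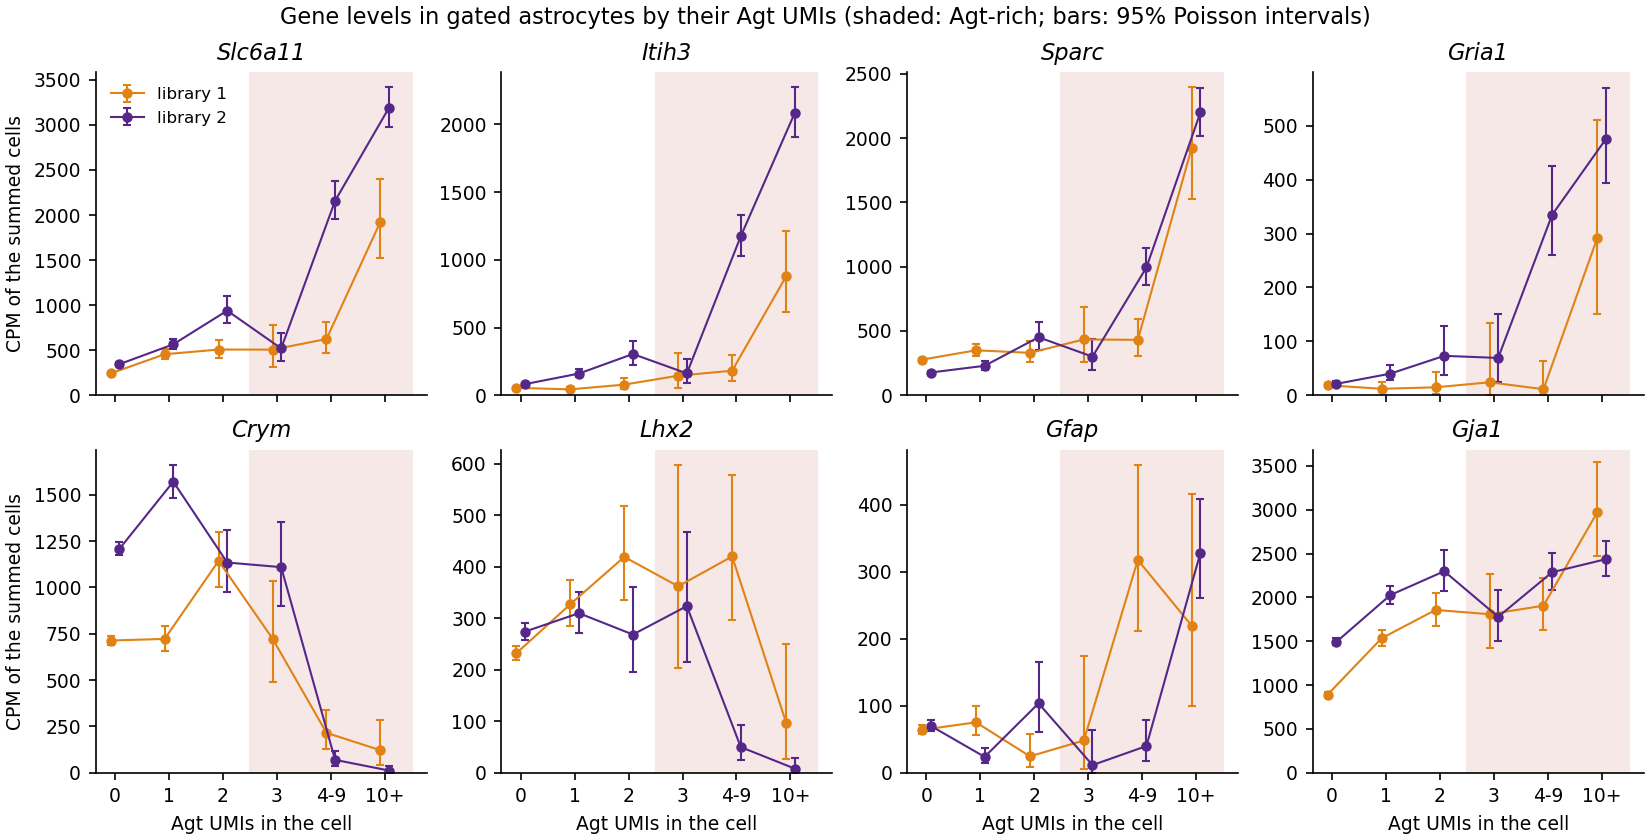
Levels (CPM of the summed cells, with 95% exact Poisson intervals) of 8 genes in gated astrocytes by the number of Agt UMIs in the cell, in libraries 1 and 2, with the Agt-rich classes shaded. Slc6a11, Itih3, Sparc and Gria1 were highest in cells with 10 or more Agt UMIs, where Crym was at 122 CPM in library 1 and 12.3 CPM in library 2. Lhx2 was at its lowest in the same class, Gfap had wide intervals and Gja1, a gene of the rule, was present throughout.

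Detection of these genes was also compared within single members. In library 2 an Itih3 UMI without Crym was found in 82 of 112 members, both in 9, Crym without Itih3 in 9 and neither in 12. Itih3 and Gria1 were found together in 65, Itih3 alone in 26, Gria1 alone in 3 and neither in 18. In library 1 Itih3 and Gria1 were found together in 7 of 23 members and Gria1 never without Itih3, whereas Crym and Itih3 were found together in 4, Crym alone in 5 and Itih3 alone in 12. Crym and Slc6a11 were found together in all 9 members of library 1 that had a Crym UMI and in 14 of 18 in library 2. No test was made of these counts. Cells differ in depth, and a gene missing from a cell may have gone undetected.

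Gfap, the intermediate filament of fibrous and reactive astrocytes, was not a steady companion of Agt. It stood at 229 CPM (163 to 313) and 168 CPM (135 to 206) in Agt-rich cells against 64.1 and 70.1 CPM in all Agt-zero cells, a log2 fold change of 1.47 ± 0.27 (adjusted p = 4.3e-06). Matched cells had 46.9 and 136 CPM, and the log2 fold change was 0.87 ± 0.38 (adjusted p = 0.44). A single cell held 27 of the 39 Gfap UMIs of the members in library 1 and another 66 of the 89 in library 2, and without them Gfap stood at 75.9 and 44.1 CPM, near the Agt-zero level in library 1 and below it in library 2. The direction of Gfap turned to -0.81 over all cells and -0.96 after matching when cells with any UMI of the 4 excluded markers were left out. Of the filament and fibrous genes tested, Gfap was called higher and Vim fell among 7 over all cells, where 4.26% of all genes were called higher and 5.01% lower. After matching, none of 8 was called apart from the filter-favoured thrombospondin Thbs4, which was lower. It had a UMI in 2.96% of Agt-rich and 14.1% of matched cells, and is not read as a result of the list. The medians were 0.09 over all cells and -0.23 after matching.

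Of the acute-phase and inflammatory genes, Itih3 rose among 7 tested over all cells and 8 after matching, against 4.26% and 0.541% of all genes, with medians of 0.34 and 0.20, and Socs3, Osmr, Il6ra, Lcn2, C3 and Hpx were at 0 in Agt-rich cells of both libraries. Of the glucocorticoid-responsive genes, Tsc22d3, known as Gilz, rose over all cells (1.202, adjusted p = 9.5e-04) and had 1.04 after matching (adjusted p = 0.15), 1 of 7 and 0 of 7 tested, with medians of 0.46 and 0.45. The metallothioneins Mt1, Mt2 and Mt3 were not called, with medians of 0.46 and 0.20. Jun and Hsp90aa1 fell over all cells among 4 immediate early and heat shock genes tested and none after matching, where 5.01% and 0.271% of all genes were called lower, with medians of -0.86 and -0.68.

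Among receptors of astrocyte signalling, the endothelin receptor Ednrb rose over all cells among 10 tested, where 4.26% of all genes were called higher. The adenosine receptor Adora1 and the adrenergic receptor Adra2a were filter-favoured through the Agt-rich and the cannabinoid receptor Cnr1 through the Agt-zero group. The list had a median of 0.77 over all cells, and none of 10 was called after matching, with a median of 0.56. Ednrb came nearest, at 1.55 over all cells (adjusted p = 2.4e-05) and 1.31 after matching (adjusted p = 0.065). Adra2a had opposite signs in the libraries, -0.49 in library 1 and 2.39 in library 2 over all cells. Of the glycogen phosphorylases, Pygb rose and the filter-favoured Pygm was higher over all cells among 14 genes of glycolysis and glycogen, with a median of 0.41, and none was called after matching, with a median of 0.47. Among 8 thyroid hormone genes over all cells Crym was lower, where 5.01% of all genes were called lower, and the filter-favoured Hr was higher (2.81), with a median of -0.22. None of them was called after matching, with a median of -0.19. No gene was called among 11 of lipid and cholesterol metabolism, with medians of 0.34 and 0.20, nor among the 13 mitochondrially encoded genes, with medians of -0.09 and 0.13.

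**Figure D4:**
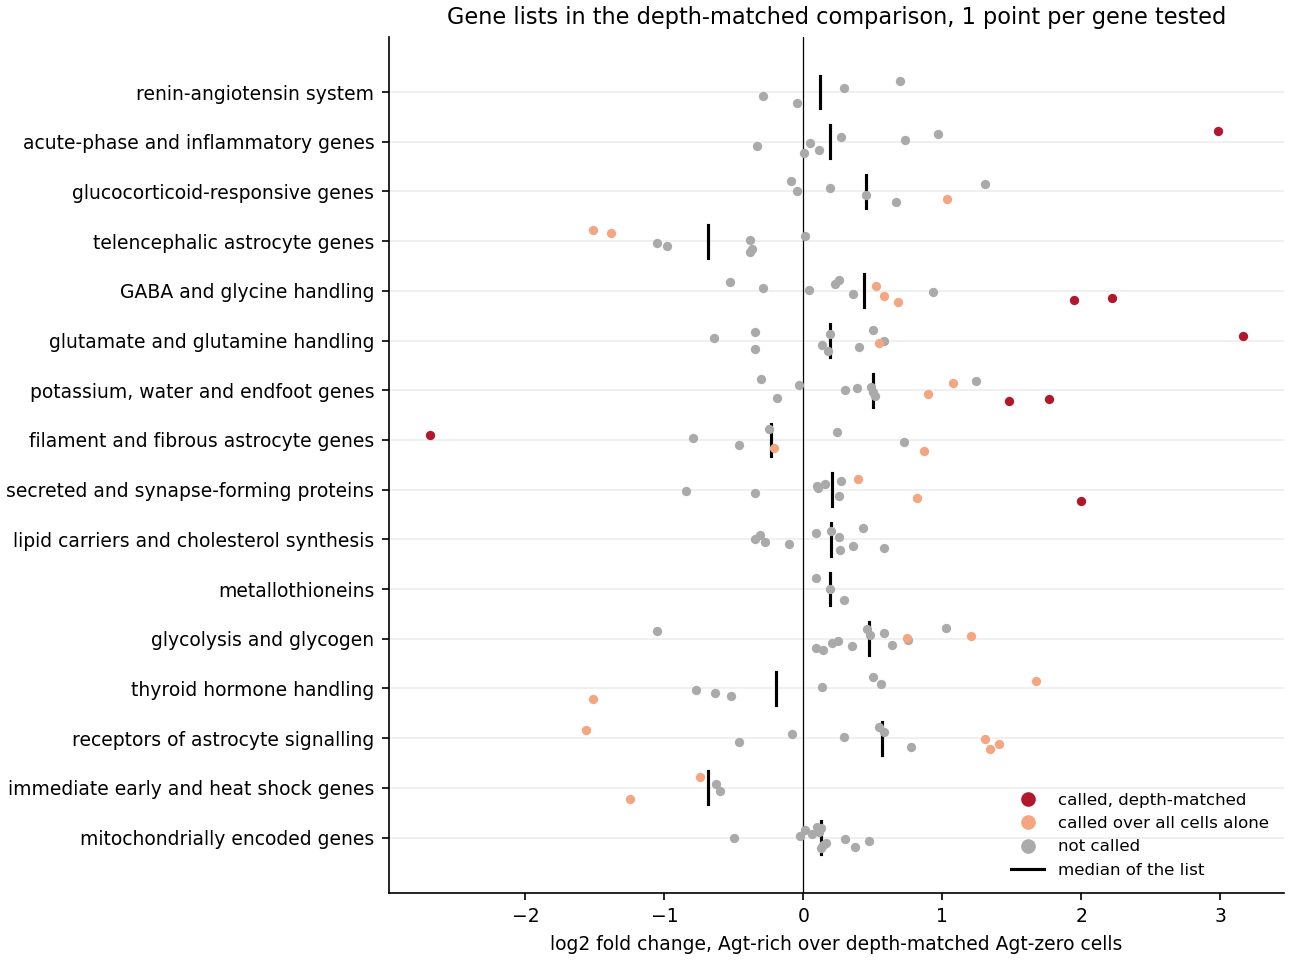
Log2 fold change of each tested gene of 16 lists between Agt-rich and depth-matched Agt-zero astrocytes, with the median of each list as a black bar. Red points passed the matched test, orange points passed over all cells alone, and the median over all genes tested was 0.01. The red points to the right are Itih3, Slc6a11, Slc6a9, Gria1, Kcnj10, Kcnj16 and Sparc, and the red point to the left is Thbs4. Gria1 and Thbs4 were filter-favoured.

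RNA of other cell types differed between the groups. Some cells that carried it were left out in the alternatives on haemoglobin, on neuroblast or division markers and on the 4 excluded markers. Beyond these alternatives its part in the results was not tested. The 8 neuroblast markers summed to 756 and 96.1 CPM in Agt-rich cells, 1970 and 831 CPM in all Agt-zero cells and 1495 and 509 CPM in matched cells, led by Sox11 in each. Of the 3 that were tested Sox11 fell over all cells, Igfbpl1 and Stmn2 were filter-favoured through the Agt-zero group, and Dlx1 and Dlx6os1 were at 0 in Agt-rich cells of library 2. Oligodendrocyte markers summed to 299 and 317 CPM against 1081 and 275 CPM in all Agt-zero and 416 and 289 CPM in matched cells, with Mobp and Mal the most abundant in Agt-rich cells, and Mag and Cldn11 fell over all cells among 6 tested, where 5.01% of all genes did, while Ermn was filter-favoured. Neuron markers summed to 188 and 151 CPM against 432 and 424 CPM and, in matched cells, 188 and 585 CPM, and the 3 called of 4 tested over all cells, Snap25, Gad2 and Tac1, were filter-favoured through the Agt-zero group.

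Mural markers summed to 93.8 and 143 CPM, led by Pdgfrb, against 816 and 285 CPM in all Agt-zero and 1366 and 132 CPM in matched cells, where Vtn alone held 950 CPM in library 1. Endothelial markers summed to 46.9 and 43.4 CPM against 87.8 and 38.3 CPM in all Agt-zero and 76.2 and 24.5 CPM in matched cells, with no gene tested. Erythroid genes summed to 76.2 and 32.0 CPM against 6616 and 6713 CPM in all Agt-zero and 58800 and 10770 CPM in matched cells, with Alas2 at 0 in Agt-rich cells of both libraries. Microglial markers summed to 193 and 183 CPM against 338 and 232 CPM in all Agt-zero and 205 and 142 CPM in matched cells. C1qa fell among 3 tested over all cells, where 5.01% of all genes did, and had a log2 fold change of 0.18 after matching (adjusted p = 0.94). Macrophage markers summed to 29.3 and 132 CPM against 47.8 and 63.6 CPM in all Agt-zero and 0 and 17.0 CPM in matched cells. Dab2 made up all of this in library 1 and 130 CPM of it in library 2, where Pf4 made up the rest, and Mrc1, Lyve1, Cd163, F13a1, Ms4a7 and Cbr2 were at 0 in Agt-rich cells of both libraries.

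Ependymal markers summed to 58.6 and 132 CPM against 295 and 339 CPM in all Agt-zero and 64.5 and 115 CPM in matched cells, with Rarres2 at 58.6 and 106 CPM the most abundant in Agt-rich cells and Ccdc153, Tmem212, Ak7 and Hydin at 0 in Agt-rich cells of both libraries. Rarres2, the 1 member tested, fell over all cells (-0.87 ± 0.30, adjusted p = 0.044), where 5.01% of all genes did, and had 0.044 after matching (adjusted p = 0.99). Choroid plexus markers were at 0 in library 1 and at 60.3 CPM in library 2, against 11.7 and 11.3 CPM in matched cells, of which Otx2, a homeobox factor that was filter-favoured through the Agt-rich group over all cells, made up 33.9 CPM. Oligodendrocyte precursor markers summed to 93.8 and 52.8 CPM against 171 and 126 CPM in all Agt-zero and 46.9 and 211 CPM in matched cells, led by Vcan in Agt-rich cells, with Pdgfra and Gpr17 at 0 in Agt-rich cells of both libraries.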

How the data were processed

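Single-cell RNA was measured in 2 libraries of 1 condition. The deposited values are raw UMI counts of 32285 genes per barcode, which the authors made with Cell Ranger 4.0 per the labels (the study's methods name another version) on mm10, keeping barcodes called cells, without normalization. Each library was tabulated by the cell rule given in the report. The members, gene lists and tests were chosen with earlier results of these data known.

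UMI counts were summed per library and group and fitted with edgeR 4.0.16 (R 4.3.3; TMM factors, glmQLFit, glmQLFTest, prior count 2). The library was a block, since both groups of a library come from 1 suspension. The SE of a log2 fold change is its absolute value divided by the square root of the test's F statistic. That statistic uses a spread moderated across genes, so that the SE is not a plain one over the libraries. A gene was tested where 10% or more of the cells in 1 of the groups had a UMI of it, the 13 genes of the rule apart, and p-values were adjusted by Benjamini and Hochberg over all genes tested. In the depth-matched fit each Agt-rich cell was paired with 1 unused Agt-zero cell of its library whose UMI total was within 0.25 on the log2 scale. Levels in CPM carry exact Poisson and shares exact binomial intervals at 95%. The script was tested on simulated data. Scrublet (scanpy 1.11.5, expected doublet rate 6%) marked doublets, which the fits kept unless stated. Python 3.11.15, numpy 2.4.6, scipy 1.17.1, pandas 2.3.3 and matplotlib 3.10.9 were used.

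Named genes passed an adjusted p of 0.05 in both fits with the same direction in each library of both, the 12 largest rises and 12 largest falls after matching. Members of the gene lists were named besides, among them Crym, Gfap and Slc6a11. Some genes that the rule or the lists name are not reported here. Alternatives were library sizes alone, DESeq2 1.42.0, no block, every gene with a UMI in each sum, doublets left out, other minimums of genes, markers and Agt UMIs, no UMI of the excluded markers, a 20% mitochondrial maximum, thinning to 2000 UMIs and leaving out each library. Those on haemoglobin and on neuroblast or division markers were chosen after seeing the data. Agt promoter letters are from RefSeq on GRCm38.p6, gene positions from GRCm38 by gene identifier.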

Additional observations from a re-analysis of the deposited data

How the results depend on the processing

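Over all cells the number of called genes, 657, was 158 with DESeq2, 158 with no replicate block (89 higher and 69 lower), 253 with at least 6 astrocyte markers, 217 with cells thinned to 2000 UMIs and 207 with cells of neuroblast or division markers left out. The other alternatives gave 549 to 863. After matching the number, 60, was 1 with library sizes alone, 6 with DESeq2 and 3 with cells of 20% or more mitochondrial UMIs left out. It was 0 with every gene that had a UMI in each sum, by edgeR, with 591 genes at an unadjusted p under 0.05. It was 152 with at least 500 detected genes, 139 and 131 with at least 2 and 5 Agt UMIs, 137 with at least 6 astrocyte markers, 159 with no UMI of the excluded markers and 145 with haemoglobin-rich cells left out, and 52 to 68 otherwise, 65 of them with no replicate block. Of 60 matched calls 40 were higher, against 72 of 159 with no UMI of the excluded markers, 67 of 139 with at least 2 and 62 of 131 with at least 5 Agt UMIs. The mean share of Agt-rich cells ran from 4.42% to 8.93%, and leaving out a library gave 1.74% and 10.9%. Leaving out a library leaves no residual spread, so that no genes could be called.

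Among single genes 1421 values kept direction and side of the threshold, 225 lost the call, 37 gained it and 10 turned. Gfap turned to -0.81 over all cells and -0.96 after matching with no UMI of the excluded markers, and to -0.16 after matching with neuroblast or division markers left out. With library 1 or 2 alone Lhx2 ran from -1.91 to 0.50 and Adra2a from -0.49 to 2.39 over all cells. After matching Crym ran from -2.72 to 0.062, Lhx2 from -1.96 to 0.086, Adora1 from -0.039 to 2.00, Adra2a from -1.05 to 1.88 and Stmn2 from -2.25 to 0.64. The cause was not tested. In library 1 the results rest on 23 members, which held 170624 UMIs in sum.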
